A study of Homo sapiens and Mus musculus with 74 samples.

Results

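The proteasome is represented here by 45 genes, all protein-coding genes of the mouse annotation (GENCODE M21) whose symbol begins with Psma, Psmb, Psmc, Psmd or Psme followed by a digit, out of 21908 protein-coding genes. Each gene was followed by its transcript with the longest protein, since the 45 genes are listed with 260 transcripts. They comprised 7 alpha and 7 constitutive beta subunits of the core, 3 immunoproteasome subunits, 2 core subunits restricted to testis or thymus, 6 ATPases and 3 other subunits of the base, 8 lid subunits, 3 chaperones of regulatory particle assembly, 5 activators and Psmc3ip. Psmc3ip shares the symbol pattern but encodes a meiotic recombination factor and is no proteasome subunit.

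The study asked what loss of Rpl41, the gene of a very small ribosomal protein, does to translation. Its mouse table holds 30 libraries from adult male C57BL/6J mice, wild type (WT, Rpl41+/+) or homozygous knockout (KO, Rpl41-/-), 3 replicates per group, from kidney and brain. The KO allele lacks the Rpl41 coding sequence in every cell, having been made with CRISPR-Cas9. Kidney and brain were measured by RNA-seq and by Ribo-seq, which counts ribosome-protected fragments (RPFs), and kidney also by disome-seq, which counts fragments protected by a pair of adjacent ribosomes.

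The 26S proteasome degrades proteins tagged with ubiquitin. Its barrel-shaped core stacks beta rings, which carry the proteases, between alpha rings, and a regulatory particle of ATPases and a lid binds, unfolds and deubiquitinates substrates. Interferon induces Psmb8, Psmb9 and Psmb10, which replace the catalytic subunits Psmb5, Psmb6 and Psmb7 in newly built cores and change which peptides are made for antigen presentation.

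Rpl41 itself followed the labels, with 3 to 8 counts in KO kidney RNA-seq against 3695 to 7502 in WT, 6 to 12 against 8981 to 12199 in the RNA of brain, and 0 to 4 in any KO Ribo-seq or disome library. Library totals lay between 44998381 and 55077048 counts for kidney RNA-seq and between 84433838 and 123745890 for brain RNA-seq. They lay between 11036643 and 42452425 for kidney Ribo-seq, between 9498663 and 35881929 for brain Ribo-seq and between 1187636 and 3018963 for disome-seq. Values in CPM are counts divided by the library total and scaled to a common size. KO kidney RNA-seq replicates 2 and 3 stood apart from the other kidney RNA libraries. Mitochondrial rRNA took 1.76% and 1.67% of their counts against 0.436% to 0.962%, and 83287 and 86071 transcripts were detected in them against 91222 to 93091, so results that rest on them are given with and without them. A sum of 5 neuron markers was 1478 to 1680 CPM in the RNA of brain against 0.254 to 0.575 in that of kidney, and a sum of 6 kidney markers was 3838 to 4303 in kidney RNA-seq against 0.557 to 0.872 in the RNA of brain, where the defining marker Umod was at 0.

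The level of each subunit was compared per length, as CPM per kilobase, over coding length for RPFs and transcript length for RNA. In WT kidney the 14 constitutive core subunits had a median RPF level of 78.4 ± 3.40 (SD, n = 3) and the 17 base and lid subunits one of 34.6 ± 0.650. In WT brain these medians were 58.1 ± 4.30 and 27.9 ± 0.551. The core thus stood above the regulatory particle in RPF density in both tissues, by more than the spread between replicates.

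**Figure D1:**
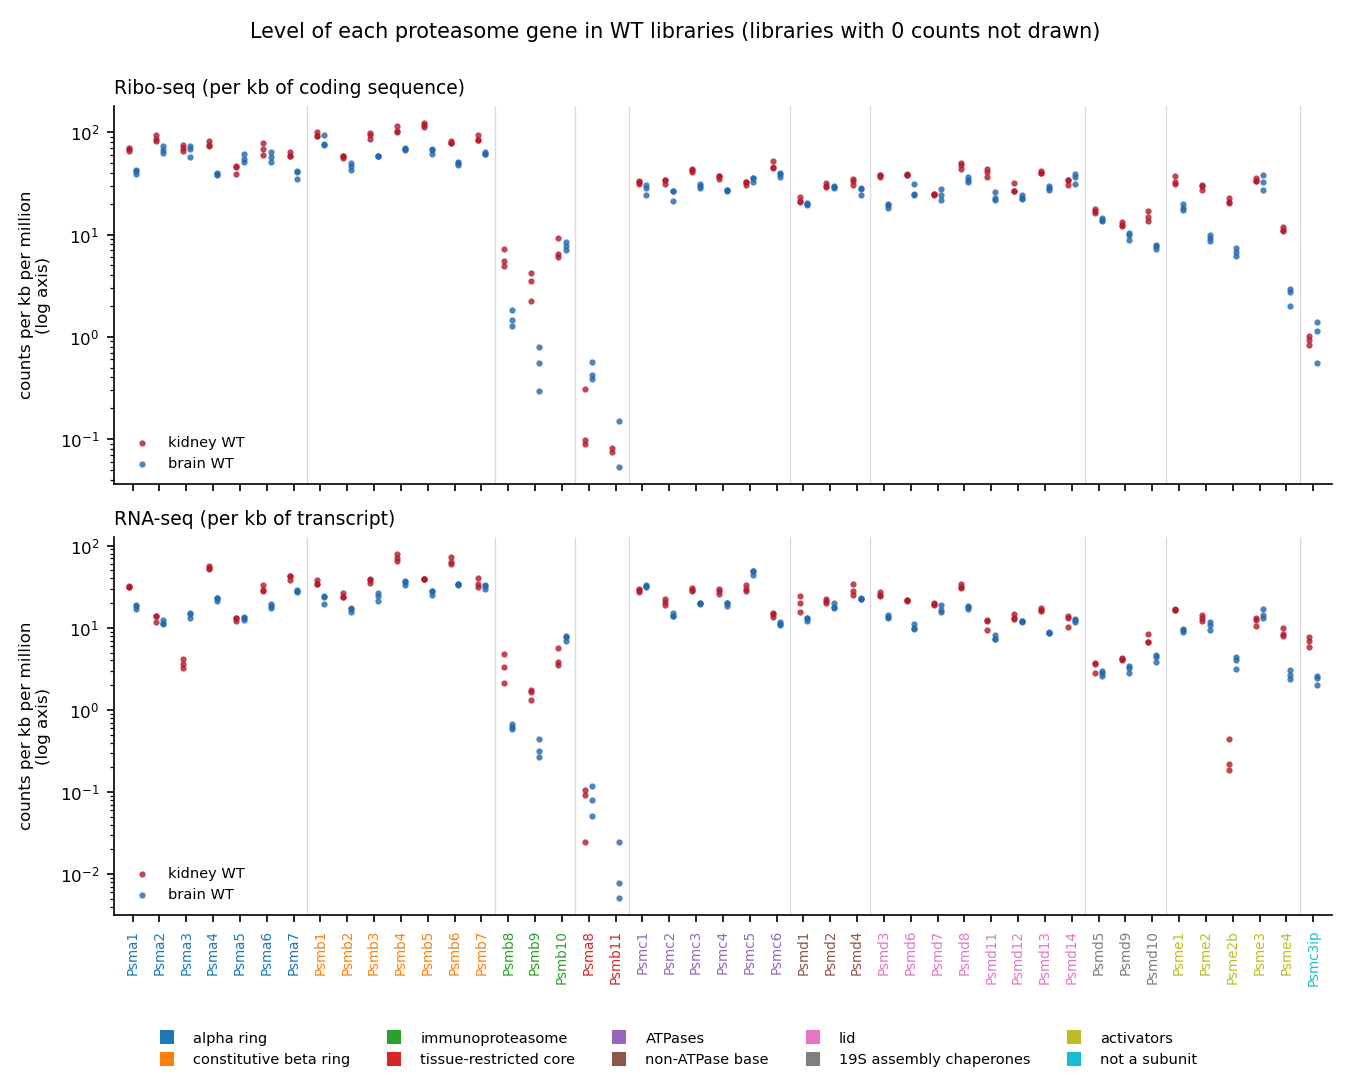
Level of each proteasome gene in WT libraries, in CPM per kilobase on a log axis, for Ribo-seq and RNA-seq of kidney and brain. Points are libraries (those with 0 counts are not drawn) and names are coloured by part of the complex; core subunits span 44.0 (Psma5) to 118 (Psmb5) in kidney Ribo-seq, where the highest base and lid subunits reach 47.9 (Psmc6) and 47.1 (Psmd8), and Psma8 and Psmb11 lie at the bottom.

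Within the rings the RPF levels lay close together. Across the 14 core subunits the highest RPF level was 2.69 ± 0.279 times the lowest in WT kidney and 2.17 ± 0.190 times in WT brain (SD, n = 3). In kidney the alpha ring ran from Psma5 at 44.0 ± 3.96 to Psma2 at 87.0 ± 5.57, and the beta ring from Psmb2 at 57.6 ± 1.53 to Psmb5, the chymotrypsin-like protease, at 118 ± 5.31. Psmb4 followed at 107 ± 8.24, a difference smaller than the sum of these SDs. The ATPases ran from Psmc5 at 32.1 ± 1.42 to Psmc6 at 47.9 ± 3.99, and the lid from Psmd7 at 24.9 ± 0.410 to Psmd8 at 47.1 ± 2.90. Psmd4, a ubiquitin receptor of the base, was at 33.2 ± 2.27 and Psmd1, its large scaffold, at 21.8 ± 1.18.

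In brain the order was partly different. The highest core RPF level was that of Psmb1, at 82.5 ± 10.0, and the lowest that of Psma4, at 39.3 ± 0.778, next to Psma7 at 39.4 ± 3.92. Psmc6 was again the highest ATPase, at 38.5 ± 2.08, and the highest lid members, Psmd14, its deubiquitinase, at 35.7 ± 3.75 and Psmd8 at 34.4, differed by less than the SD, while Psmd3 was the lowest at 19.0 ± 0.914. The assembly chaperones Psmd5, Psmd9 and Psmd10, which leave before the particle is complete, were below every base and lid subunit in both tissues, between 12.6 and 17.0 in kidney and between 7.62 and 14.0 in brain. Psma8, the testis form of an alpha subunit, had 0 to 18 counts and Psmb11, the thymus form of Psmb5, 0 to 10 counts in any library, and Psmb11 passed the filter on low counts in no comparison, while Psma8, where it passed, was never called.

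RNA levels of the core were less even than its RPF levels. Across the 14 core subunits the RNA range was 3.04 ± 0.0934-fold in WT brain but 20.0 ± 4.33-fold in WT kidney, where the lowest was Psma3 at 3.66 ± 0.444 and the highest Psmb4 at 71.7 ± 6.98. Psma3 has a coding sequence about as long as that of Psmb4 but a longer transcript (2747 against 1084 windows of 100 bases). The kidney RNA range thus depends in part on the length used. Before division by length, Psma3 had 500, 471 and 527 counts there and Psmb4 4110, 4775 and 3449. Psma3, an alpha subunit, had an RPF level of 70.5 ± 4.99 in the same tissue, close to the middle of the core. Among the 5 core subunits with almost no sequence repeated in the genome the kidney RNA range was 2.94 ± 0.455-fold, against 1.86 ± 0.135-fold in RPFs. The 9 base and lid subunits with as little repeated sequence did not share this order in WT kidney, with an RNA range of 1.68 ± 0.177-fold and an RPF range of 1.95 ± 0.116-fold. In WT brain these 9 did share it, with ranges of 4.64 ± 0.654-fold in RNA and 1.84 ± 0.171-fold in RPFs. Over all 17 base and lid subunits the RNA range was 3.11-fold in WT kidney and 6.26-fold in WT brain, against 2.23-fold and 2.03-fold in RPFs. The wider RNA range was thus not particular to the core.

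Repeated sequence bears on these genes because many have processed pseudogenes, intronless copies made from their mRNA, and reads that map to several places were kept in the alignment. The share of each coding sequence whose windows of 30 bases recur exactly elsewhere in the genome (GRCm38) was 91.7% for Psma3, 89.3% for Psma5, 84.6% for Psmb3, 79.1% for Psme2, 78.0% for Psmb5 and 60.2% for Psma4. It was under 1% for 25 of the 45 genes, 1% to 30% for 8 and 30% or more for 12. All processed pseudogenes together took 1.46% to 1.81% of counts in brain RNA-seq but 0.0267% to 0.0437% in kidney RNA-seq, and 3.63% to 4.21% and 3.98% to 4.74% in brain and kidney Ribo-seq. Kidney and brain RNA-seq thus differed in how many reads were assigned to such copies, while the Ribo-seq libraries of both tissues were alike.

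Psma3 (chr12:70974621-70996347, plus strand, GRCm38) shows how close the copies are. Its processed pseudogene Gm13835 lies at chr6:31141979-31142663, and 8 of 10 coding exon junctions tested recur in it unbroken. The stretch shown spans coding bases 214 to 243 of Psma3 and chr6:31142504-31142533 on the minus strand. Capitals mark the bases after the exon junction, which sit in another exon of Psma3 and directly follow in Gm13835.
Psma3 and Gm13835: cgacatgttggaatgGCAGTTGCAGGTTTG
Gm13835 had 2548, 2635 and 2291 counts in WT brain RNA-seq against 15, 17 and 21 in WT kidney RNA-seq, and 739, 444 and 946 in WT brain Ribo-seq against 1164, 624 and 650 in WT kidney Ribo-seq. Psma3 also overlaps the antisense gene 3110056K07Rik, and reads of these genes cannot be told apart if counting ignored strand.

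Psme2, which encodes the beta chain of the PA28 activator, and Psme2b are a second near-identical pair. Psme2 lies at chr14:55587441-55591087 and Psme2b, a gene of 1 exon, at chr11:48945354-48946190, both on the minus strand. Of 717 coding bases 5 differ, an identity of 99.3%. The stretch from coding base 514 is shown because it holds 2 of these differences, in capitals, at chr14:55588049-55588078 and chr11:48945576-48945605.
Psme2: ggggaCgctgtagccaaggcttccaaggaC
Psme2b: ggggaTgctgtagccaaggcttccaaggaT
Values of this pair are uncertain wherever the genes are set apart, since their coding sequences are nearly identical.

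Most proteasome subunits had more RPFs in kidney than in brain. Of 43 genes tested in WT, 31 (72.1%) were higher in kidney and 0 lower, beside 37.5% and 38% of all protein-coding genes, by edgeR's quasi-likelihood test at an adjusted p of 0.05. The median log2 fold change, kidney over brain, was 0.53, against 0.02 over all genes. Values below are CPM after TMM scaling within the libraries of each comparison, so that a library's CPM differs slightly between comparisons. In whole tissue, fewer cells of a type and less RNA per cell cannot be told apart.

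By part of the complex, higher in kidney were 5 of 7 alpha, 6 of 7 beta, 4 of 6 ATPase, 1 of 3 other base and 6 of 8 lid subunits, all 3 assembly chaperones and 4 of 5 activators, the share of the other base subunits (33.3%) lying below that of all genes. Psme4, the PA200 activator, had 14.7, 10.7 and 16.3 CPM in brain and 60.6, 64.9 and 68.8 in kidney. Psme2 had 6.82, 6.45 and 6.19 in brain and 21.3, 20.7 and 23.1 in kidney. The tissues did not overlap for either activator, and the log2 fold changes were 2.20 ± 0.16 (SE, adjusted p = 1.72e-08) for Psme4 and 1.74 ± 0.13 (adjusted p = 2.52e-08) for Psme2. Its partner Psme1, the alpha chain of PA28, rose by 0.96 on the log2 scale (adjusted p = 1.31e-05), and Psme2b by 1.75. Psme3, the nuclear PA28 gamma, had a fold change of 0.16 (adjusted p = 0.332).

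Among core subunits the protease Psmb5 had 52.8, 51.8 and 48.7 CPM in brain and 88.8, 99.3 and 103 in kidney, a log2 fold change of 0.92 ± 0.12 (adjusted p = 1.37e-05). Psmb6, the caspase-like protease, rose by 0.76 and Psmb7, the trypsin-like one, by 0.58. Psma4 rose by 1.07 and the lid subunit Psmd3 by 1.08. Psma5 at -0.25 (adjusted p = 0.103), Psmc5 at -0.03, Psmd14 at -0.03 and Psma3 at 0.17 did not pass the test.

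**Figure D2:**
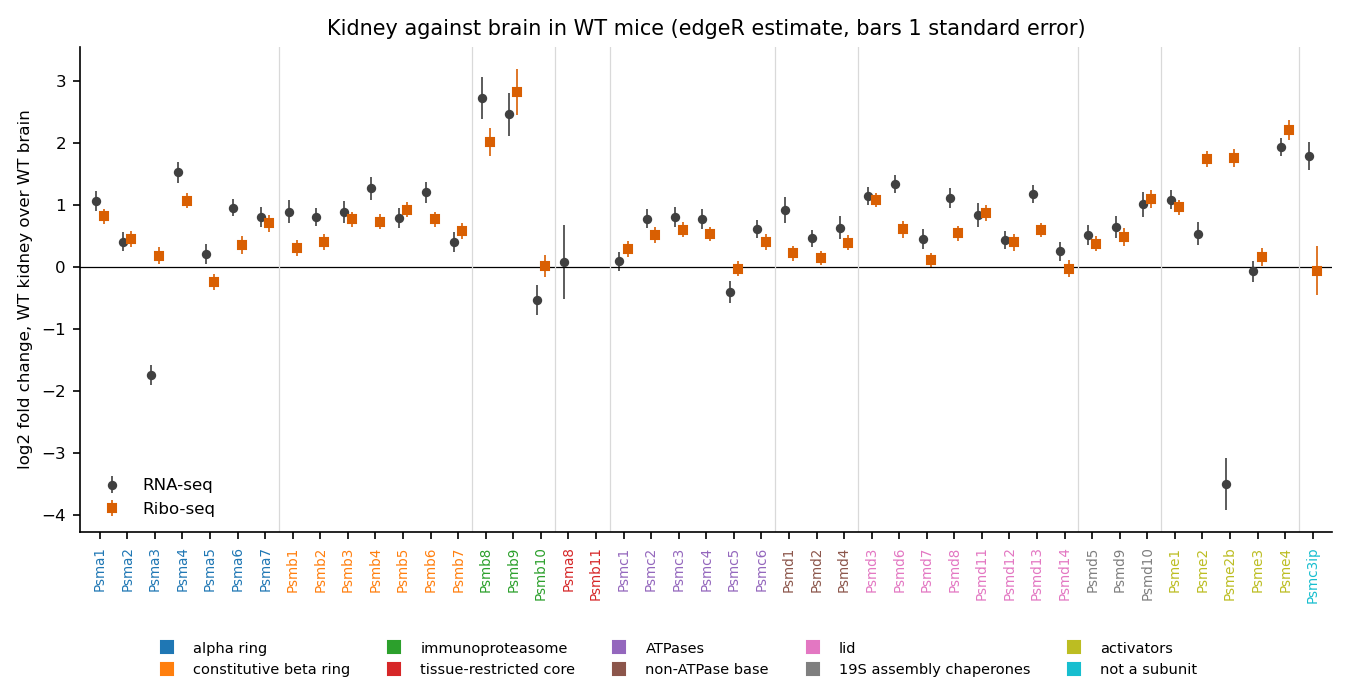
Log2 fold change of each proteasome gene, WT kidney over WT brain, in RNA-seq and in Ribo-seq, with 1 SE from edgeR. Most points lie above 0, with medians of 0.79 for RNA and 0.53 for RPFs; Psma3 at -1.74 and Psme2b at -3.51 lie far below 0 in RNA only.

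RNA was also higher in kidney for most subunits. Of 44 genes tested, 35 (79.5%) were higher and 2 (4.55%) lower in kidney, beside 38.2% and 34.8% of all genes, with a median of 0.79 against 0.10. Psme4 had 16.9, 14.7 and 16.9 CPM in brain and 60.2, 59.2 and 65.2 in kidney, a log2 fold change of 1.93 ± 0.15 (adjusted p = 1.65e-06). All 7 constitutive beta, 7 of 8 lid and 4 of 6 ATPase subunits were higher, but the call for Psmb7 (0.40, adjusted p = 0.0484) was lost in 5 of 7 alternative analyses and that for Psme2 (0.53, adjusted p = 0.0281) in 3 of 7. Psmc5, an ATPase, was at -0.40 (adjusted p = 0.0676) and was called lower with the replicate number as a block (adjusted p = 0.0195). Scaling by library totals in place of TMM moved the fold change of all genes by -0.25 on the log2 scale, and 28 genes were then higher and 4 lower. The shares of all genes called with this scaling are not given here, so these 2 counts are not set against a background. Groups did not overlap by this scaling for 32 genes with kidney higher and 6 with kidney lower, beside 36.2% and 44.2% of all genes.

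The RNA calls that went down belonged to the genes with copies. Psma3 had 41.8, 40.3 and 31.7 CPM in brain and 11.4, 10.6 and 11.9 in kidney, a log2 fold change of -1.74 ± 0.16 (adjusted p = 6.93e-06). Psme2b had 3.26, 3.58 and 2.23 in brain and 0.205, 0.430 and 0.158 in kidney, a log2 fold change of -3.51 ± 0.41 (adjusted p = 3.68e-05). Neither was lower in RPFs, and the counts of Gm13835 in brain and kidney RNA-seq moved in the same direction as those of Psma3. The part of repeated sequence in these values was not tested.

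**Figure D3:**
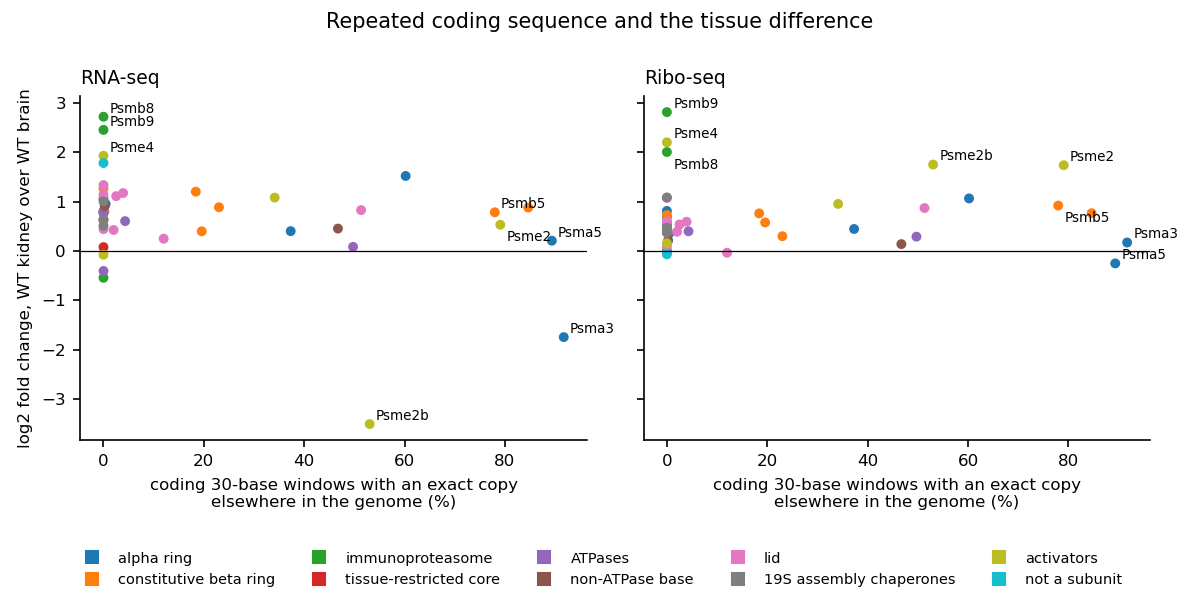
Log2 fold change of each proteasome gene, WT kidney over WT brain (vertical), against the percentage of its coding windows of 30 bases that recur elsewhere in the genome (horizontal), for RNA-seq and Ribo-seq. Genes under 1% lie between -0.54 and 2.72 in RNA, while those at 30% or more spread from -3.51 to 1.52.

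The increase in kidney was of similar size among genes without repeated sequence. Of the 25 genes under 1%, 24 were tested in RNA, with 20 higher, 0 lower and a median of 0.80, and 23 were tested in RPFs, with 17 higher, 0 lower and a median of 0.52. The 3 genes with higher translational efficiency in kidney, described next, were all at 30% or more.

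Translational efficiency (TE), RPFs relative to RNA, differed between WT tissues for 6 of 44 genes, 3 higher and 3 lower in kidney (6.82% each), beside 10.4% and 12.5% of all genes. Psme2b at 5.27, Psma3 at 1.93 (adjusted p = 9.29e-06) and Psme2 at 1.22 (adjusted p = 0.00176) were higher. Psmc3ip at -1.83 (adjusted p = 0.0112) and the lid subunits Psmd6 at -0.72 (adjusted p = 0.0165) and Psmd13 at -0.57 (adjusted p = 0.0425) were lower. Psmc3ip had more RNA in kidney, 11.0, 10.4 and 7.67 CPM against 3.23, 3.05 and 2.16 in brain, but RPFs of 0.541, 0.640 and 0.700 against 0.882, 0.717 and 0.362, which overlapped. The call for Psmd13 was lost in 4 of 7 alternatives and that for Psmd6 in 2 of 7, and Psmc3ip lost its call without WT brain Ribo-seq replicate 1 (-1.44, adjusted p = 0.0814). The median TE change over the 44 genes was -0.19, against -0.17 over all genes.

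The KO tissues, measured in other libraries, gave similar counts. In KO, 31 of 43 genes (72.1%) were higher and 1 (2.33%) lower in kidney RPFs, beside 40.6% and 40.3% of all genes, and 32 (74.4%) higher and 3 (6.98%) lower in RNA, beside 39.8% and 34.2%. Psme4 had RPF and RNA fold changes of 2.19 and 1.97. The RPF fall was that of Psmd14 (-0.25, adjusted p = 0.0369), a call lost with the looser filter on low counts (-0.22, adjusted p = 0.105), and the RNA falls were Psme2b (-2.60), Psma3 (-1.72) and Psmc5 (-0.47, adjusted p = 0.0255), the last not called without KO kidney RNA-seq replicates 2 and 3 (-0.54, adjusted p = 0.0639). Psma5 was at 0.37 in RNA, with an adjusted p of 0.0625 that became 0.0325 with the replicate block. Without KO kidney RNA-seq replicates 2 and 3, 22 genes were higher and 2 lower in RNA, with a median of 0.67 in place of 0.82, beside 32.5% and 32.6% of all genes in the same fit. That fit has a lone KO kidney library, which was assumed to vary like the brain libraries. The tissue by genotype term passed the test for 0 of 44 genes in RNA and 0 of 43 in RPFs, beside 0% and 0.141% of all genes. At an unadjusted p of 0.05 it called 0 and 1, and DESeq2 called 0 in each.

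The immunoproteasome subunits differed from each other in tissue pattern. Psmb8 had 1.16, 1.02 and 1.49 CPM in WT brain Ribo-seq and 5.95, 4.83 and 4.28 in kidney, and its log2 fold change was 2.01 ± 0.23 in RPFs (adjusted p = 2.09e-06) and 2.72 ± 0.34 in RNA (adjusted p = 5.35e-05). Psmb9 had 0.186, 0.512 and 0.362 in brain and 2.78, 2.42 and 1.56 in kidney, with fold changes of 2.82 ± 0.37 in RPFs and 2.46 ± 0.35 in RNA. Both were higher in kidney with no overlap. A sum of 9 leukocyte markers was also higher in WT kidney than in WT brain, at 132 to 164 against 34.5 to 40.4 CPM in RNA-seq and 111 to 171 against 60.9 to 81.2 in Ribo-seq, and its part in these differences was not tested. The sum was carried by the antigen presentation genes Cd74, with 67.4 to 98.4 CPM in kidney and 5.54 to 7.74 in brain Ribo-seq, and H2-Aa, with 19.7 to 36.6 and 1.37 to 1.88. The myeloid markers Csf1r, Itgam and Cd68 went the other way in Ribo-seq, Csf1r having 12.6 to 15.8 CPM in kidney and 35.7 to 48.7 in brain.

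Psmb10 did not share this pattern. It had 6.68, 6.15 and 5.79 CPM in WT brain Ribo-seq and 7.65, 5.61 and 5.21 in kidney, a log2 fold change of 0.01 ± 0.18 (adjusted p = 0.954). In RNA it had 10.0, 9.68 and 7.67 in brain and 5.58, 8.54 and 4.66 in kidney, a fold change of -0.54 (adjusted p = 0.0727) that became a fall of 0.58 on the log2 scale (adjusted p = 0.0204) with the replicate number as a block and passed in 5 of 7 alternatives. Psmb10 had the highest level of the 3 in brain, at an RPF level of 7.77 ± 0.679 CPM per kilobase against 1.51 ± 0.277 for Psmb8 and 0.550 ± 0.254 for Psmb9. It also had the highest mean RPF level in WT kidney, at 7.29 against 5.87 for Psmb8 and 3.32 for Psmb9, though libraries of Psmb10 and Psmb8 overlapped there.

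**Figure D4:**
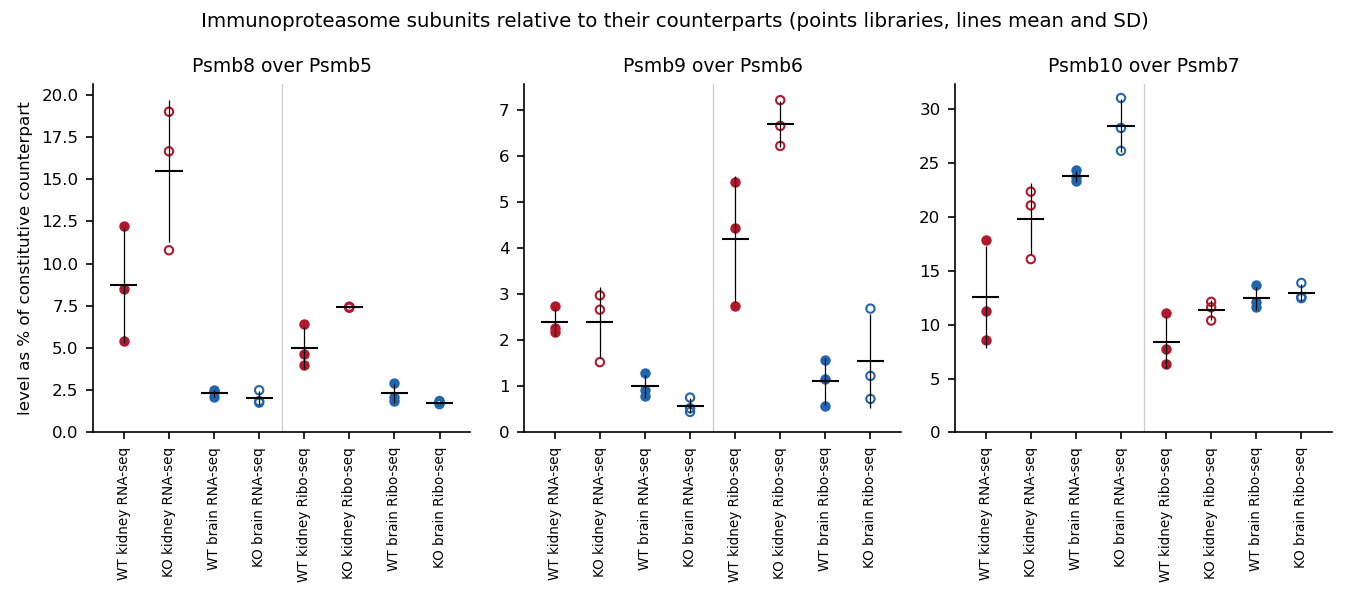
Level of Psmb8, Psmb9 and Psmb10 as a percentage of the level of Psmb5, Psmb6 and Psmb7, by tissue, genotype and assay. Points are libraries and lines their mean and SD; Psmb8 relative to Psmb5 in kidney Ribo-seq has means of 5.02% in WT and 7.42% in KO, and Psmb10 relative to Psmb7 is higher in brain than in kidney in WT RNA.

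By the transcripts followed, each interferon-inducible form was below the constitutive subunit it replaces, with group means of at most 28.5% (Psmb10 in KO brain RNA). In WT kidney RPFs, Psmb8 was at 5.02 ± 1.25% of Psmb5, Psmb9 at 4.21 ± 1.37% of Psmb6 and Psmb10 at 8.40 ± 2.45% of Psmb7 (SD, n = 3). In KO kidney these were 7.42 ± 0.0336%, 6.70 ± 0.499% and 11.4 ± 0.895%. In brain RPFs the WT and KO means were 2.31% and 1.77% for Psmb8, 1.11% and 1.55% for Psmb9 and 12.5% and 13.0% for Psmb10. Repeated sequence covers 78.0% of Psmb5, so the Psmb8 percentage depends on how its reads were assigned. The percentages also depend on the transcripts counted. With the counts of all transcripts of a gene summed, over the same length, those of WT kidney RPFs became 17.5%, 8.39% and 22.9%. Psmb10 then reached 85.2% of Psmb7 in the RNA of WT brain, 86.6% in that of KO kidney and 109% in that of KO brain. A read that fits several transcripts of a gene may enter such a sum more than once. The summed percentages thus also depend on how many transcripts are listed, and the order of Psmb10 and Psmb7 is not read from them. The leukocyte marker sum in kidney Ribo-seq was 194 to 203 CPM in KO, above the 111 to 171 of WT, and its part in the ratios was not tested. Its defining T cell marker Cd3e was at 0 in 1 of the 3 WT libraries, and Cd74 had 114 to 127 CPM in KO against 67.4 to 98.4 in WT.

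In KO kidney none of the 43 genes tested was called in RPFs, beside 9.85% of all genes (5.94% higher and 3.91% lower). At an unadjusted p of 0.05 edgeR called 3, and DESeq2 called 0 after adjustment. The median log2 fold change, KO over WT, was -0.07 against -0.02 over all genes, with 11 fold changes above 0 and 32 below. Of all genes, 47.5% lay above 0 and 52.5% below. All 7 alpha, all 7 constitutive beta and all 3 assembly chaperone genes lay below 0, as did 5 of 6 ATPase and 6 of 8 lid genes, while all 3 immunoproteasome and all 3 non-ATPase base genes lay above. The 45 genes together took 0.163% to 0.169% of counts in KO kidney Ribo-seq libraries against 0.180% to 0.191% in WT, groups that did not overlap. These are shares of library totals, and such totals in place of TMM moved the fold change of all genes by -0.0764 on the log2 scale. A sum of 6 pancreas markers was 11.6 to 138 CPM in WT and 3.90 to 7.82 in KO kidney Ribo-seq. The sum of 6 kidney markers was 3665 to 4208 CPM in WT and 4904 to 5350 in KO in the same libraries, also without overlap, and the part of either sum in these values was not tested.

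The sizes were small. Psmd11, a lid subunit, had 52.1, 51.4 and 45.8 CPM in WT and 45.4, 37.3 and 38.3 in KO, a log2 fold change of -0.31 ± 0.11 (adjusted p = 0.107). Psmd8, also of the lid, had 47.7, 46.4 and 52.4 in WT and 40.9, 38.9 and 41.8 in KO (-0.27, adjusted p = 0.122). Psma7 had 40.9, 43.5 and 47.2 in WT and 39.0, 35.7 and 37.2 in KO (-0.23, adjusted p = 0.179). WT and KO did not overlap for these 3, but the differences did not pass the test.

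Groups did not overlap for 8 of 43 genes with KO lower and for 1, Psmd1 (0.18), with KO higher (18.6% and 2.33%), beside 16.1% and 17% of all genes. With library totals in place of TMM these became 20 lower and 0 higher, beside 21.7% and 10.3% of all genes, and Psmd11 was called (-0.39, adjusted p = 0.0491). Among the proteases, Psmb5 had 83.9, 94.0 and 96.8 CPM in WT and 88.2, 69.9 and 71.3 in KO (-0.26, adjusted p = 0.204), with KO replicate 1 inside the WT range. Psmb6 and Psmb7 had fold changes of -0.22 and -0.07.

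The immunoproteasome genes gave the largest positive values in KO kidney RPFs, without passing the test. Psmb8 had 5.62, 4.57 and 4.04 CPM in WT and 6.81, 5.41 and 5.56 in KO (0.25 ± 0.15, adjusted p = 0.330). Psmb9 had 2.63, 2.29 and 1.47 in WT and 3.65, 2.52 and 2.74 in KO (0.35 ± 0.22, adjusted p = 0.340). Psmb10 had 7.23, 5.31 and 4.92 in WT and 9.48, 7.00 and 6.59 in KO (0.31 ± 0.17, adjusted p = 0.274). For each gene the groups overlapped, WT replicate 1 lying within the KO range. The activators they work with gave 0.08 for Psme1 and -0.16 for Psme2.

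**Figure D5:**
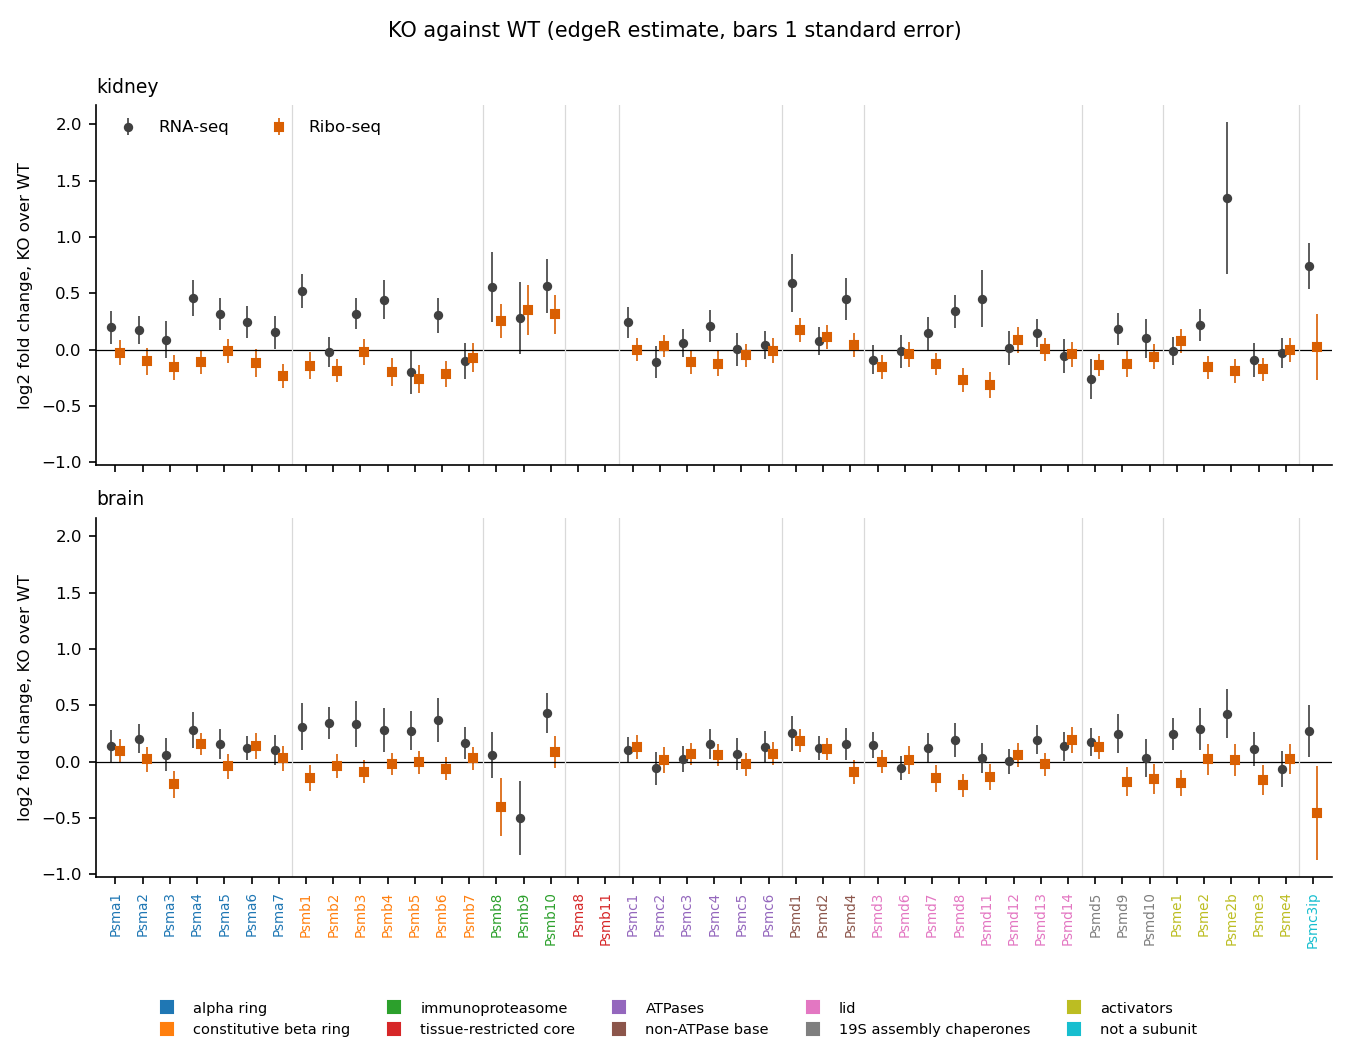
Log2 fold change of each proteasome gene, KO over WT, in kidney (upper panel) and brain (lower panel), for RNA-seq and Ribo-seq, with bars of 1 SE from edgeR and names coloured by part of the complex. None passed the test; kidney RPF values lie between -0.31 and 0.35 and kidney RNA values between -0.26 and 1.35.

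RNA in KO kidney also gave 0 called of 43, beside 0.0072% of all genes, with 6 at an unadjusted p of 0.05 and 0 by DESeq2. The median was 0.17 against 0.10 over all genes, with 32 above 0 and 11 below, beside 61.65% and 38.35% of all genes. Groups did not overlap with KO higher for 11 genes (25.6%, beside 14.2% of all genes). Psmc3ip had 9.44, 8.74 and 6.92 CPM in WT and 10.8, 15.3 and 15.9 in KO (0.74 ± 0.21, adjusted p = 0.292). Psmb1, a beta subunit, had 56.5, 65.0 and 55.7 in WT and 72.3, 90.6 and 91.3 in KO (0.52), and Psmb10 had 4.78, 7.21 and 4.21 in WT and 7.35, 7.58 and 9.07 in KO (0.57). For the first 2 of these the high KO values were those of replicates 2 and 3.

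Leaving out libraries changed the RNA values. Without KO replicates 2 and 3, when the lone KO library was assumed to vary like the WT libraries, the fold changes were 0.37 for Psmc3ip, 0.29 for Psmb1 and 0.45 for Psmb10, and the median was 0.09, with 30 above 0 and 13 below. Without KO replicate 1, which leaves replicates 2 and 3 alone, 6 genes were called higher, Psma4, Psmb1, Psmb4, Psmd1, Psmd11 and Psmc3ip, at 0.60, 0.63, 0.59, 0.81, 0.69 and 0.90, beside 8.49% of all genes called higher in the same fit. Library totals in place of TMM moved the fold change of all genes by -0.16, and groups then did not overlap for 5 genes with KO higher and 2 with KO lower. Of all genes, 7.96% then did not overlap with KO higher and 13% with KO lower.

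TE in KO kidney was called for 0 of 43 genes by edgeR, beside 0% of all genes, with 7 at an unadjusted p of 0.05. The median was -0.24 against -0.12 over all genes. DESeq2 called 2 lower, Psmb1 (-0.75, adjusted p = 0.0415) and Psmd8 (-0.69, adjusted p = 0.0365), where edgeR gave -0.66 and -0.60 (adjusted p = 0.135 for each). No share of all genes is given here for the DESeq2 calls or for the unadjusted p, so neither count is set against a background. Without KO kidney RNA-seq replicate 1, 6 genes were called lower, Psma4, Psmb1, Psmb4, Psmd8, Psmd11 and Psme2b, beside 7.41% of all genes called lower in the same fit. Without replicates 2 and 3 in its place, Psmb1 was at -0.42 and Psmd8 at -0.36, and 0 were called, as of all genes (0%).

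Disomes on proteasome mRNAs in KO kidney were called for 0 of 39 genes, beside 0.154% of all genes, with 4 at an unadjusted p of 0.05 and 0 by DESeq2. The median was -0.13 against -0.00 over all genes, and all 7 beta and all 8 lid genes lay below 0, as did 50.2% of all genes. Psma7 had 34.9, 29.6 and 40.8 CPM in WT and 27.4, 19.2 and 20.5 in KO (-0.59 ± 0.21, adjusted p = 0.282). Psmd7, a lid subunit, had 18.7, 17.7 and 16.3 in WT and 12.5, 13.5 and 9.75 in KO (-0.54 ± 0.24, adjusted p = 0.418).

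Groups did not overlap with KO lower for 7 of 39 genes in disomes (17.9%), beside 8.42% of all genes. Psmd11 was among them, with 36.6, 36.0 and 33.5 CPM in WT and 32.0, 22.5 and 24.4 in KO (-0.42, adjusted p = 0.451). Relative to RPFs, disomes were called for 0 of 42 genes, beside 0% of all genes, with 1 at an unadjusted p of 0.05 and 0 by DESeq2. There Psma7 was at -0.33 and Psmd7 at -0.39. Disome libraries were the shallowest of the 30, and Psmb8, Psmb9 and Psmc3ip were too low in them to be tested on disomes alone. Relative to RPFs, Psmb8 and Psmb9 were tested and not called (adjusted p = 1 and 0.997).

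In brain the KO left no call. RPFs gave 0 of 42 genes (beside 0.0346% of all genes), RNA 0 of 43 (beside 0.00636%) and TE 0 of 44 (beside 0%), with 0, 2 and 1 at an unadjusted p of 0.05 and 0 each by DESeq2. The RPF median was 0.01 against -0.03 over all genes, with 21 above 0 and 21 below, beside 45.6% and 54.4% of all genes. Psmb8 had 1.19, 1.08 and 1.48 CPM in WT and 0.910, 0.951 and 1.03 in KO RPFs (-0.40 ± 0.25, adjusted p = 0.534), Psmd8 was at -0.21 and Psma4 at 0.16. In RNA, Psmb9 was at -0.50 and Psmb10 at 0.43 (adjusted p = 0.898 for each).

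Psmb8 gave the only unadjusted call of the tissue by genotype term in RPFs. Its KO fold change was 0.25 in kidney and -0.40 in brain, and the term was 0.68 ± 0.28 (adjusted p = 0.569), so a difference between the tissues in the effect of the KO did not pass the test. The same term for Psmb5 was -0.25 and for Psmb10 0.24.

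The pathway around the proteasome was read from 35 genes outside the symbol rule, namely assembly factors, further subunits, associated enzymes, ubiquitin shuttles, ubiquitin genes, transcription factors and antigen processing genes. In KO kidney RPFs 5 of the 35 (14.3%) were higher and 1 (2.86%) lower, beside 5.94% and 3.91% of all genes. The lower one was Sem1, a small lid subunit, with 20.1, 21.6 and 22.3 CPM in WT and 13.5, 15.0 and 13.8 in KO (-0.59, adjusted p = 0.00885). Among the higher ones were Irf1 (0.78, adjusted p = 0.0212), a transcription factor of interferon signalling, Tap1 (0.58, adjusted p = 0.0358), which carries peptides into the endoplasmic reticulum, the ubiquitin shuttle Ubqln2 (0.54, adjusted p = 0.0122) and Usp14 (0.39, adjusted p = 0.0454), a deubiquitinase of the regulatory particle. The leukocyte marker sum given above moved with them, and its part was not tested. None of the 35 was called in another KO comparison.

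Between WT tissues, 21 of 35 (60%) were higher and 7 (20%) lower in kidney RNA, beside 38.2% and 34.8% of all genes, and 17 (48.6%) were higher and 6 (17.1%) lower in kidney RPFs, beside 37.5% and 38%. All 7 antigen processing genes were higher in both. So was Nfe2l2, a stress-responsive factor known to act on proteasome genes (3.05 in RNA and 2.47 in RPFs). Nfe2l1 was lower in kidney RPFs, with 47.7, 43.8 and 55.0 CPM in brain and 28.4, 31.0 and 26.2 in kidney, and was not called in RNA. Of the 6 regulators listed, which include both, 4 were higher and 1 lower in RPFs, and 4 and 0 in RNA. The assembly factors were all 5 higher in RNA but only Psmg1 passed in RPFs (1.67, against 1.72 in RNA). Ubqln2 (-1.56 and -2.09) and Usp14 (-0.63 and -1.44) were lower in kidney. Ubb and Rps27a, which encode ubiquitin, were lower in kidney RNA, at -2.16 and -2.28 on the log2 scale, and both were higher in kidney TE. All 4 ubiquitin genes listed were lower in kidney RNA and higher in kidney TE, as were Psma3 and Psme2b. The share of repeated sequence was not computed for the ubiquitin genes, and its part in these values was not tested.

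The promoters were read because most subunits were higher in kidney together. The motif TGACNNNGC, the core of the antioxidant response element that Nfe2l1 and Nfe2l2 bind, was searched on both strands from 250 bases before to 50 bases after the start of each transcript followed. It was found for 2820 of 21895 protein-coding genes (12.9%), for 8 of the 45 genes (17.8%) and for 6 of the 31 core, base and lid subunits (19.4%). Of 6 genes with the motif wholly before the start, 5 are shown, each as 30 bases in the direction of transcription, with the motif in capitals (in Psmc6 and Psmd12 it reads on the opposite strand). The other one is Psmd7. They lie in GRCm38 at chr14:54618023-54618052 (Psmb5, minus), chr11:70525338-70525367 (Psmb6, plus), chr14:45329587-45329616 (Psmc6, plus), chr11:107479271-107479300 (Psmd12, plus) and chr5:123228149-123228178 (Psmd9, plus), with the motif starting 20, 38, 191, 203 and 31 bases before the start.
Psmb5: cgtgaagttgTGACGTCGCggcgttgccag
Psmb6: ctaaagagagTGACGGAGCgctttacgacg
Psmc6: ccagccagtaGCTAAGTCAggcattgctca
Psmd12: gagatgttctGCTGTGTCAcatttgccccc
Psmd9: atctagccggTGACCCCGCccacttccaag
Of these 6 genes, Psmb5, Psmb6, Psmc6, Psmd12 and Psmd9 were higher in WT kidney in RNA and in RPFs, and Psmd7 in RNA alone (0.44, against 0.10 in RPFs). Of all members tested, 79.5% were higher in RNA and 72.1% in RPFs, and nothing particular to genes with the motif is read from these counts. The match is a description of these letters and not of a bound site.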

How the data were processed

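Kidney and brain of WT and KO mice were measured by RNA-seq and Ribo-seq, and kidney by disome-seq, with 3 libraries per group. The study's methods describe RNase I digestion, adapter trimming, alignment with multimapping reads allowed and counting, and the submitters' processing notes name cutadapt, STAR, featureCounts (Subread) and the build mm10, without versions. The values deposited by the authors are whole-number read counts per transcript, not normalized. The strand setting of the counting is not given in the sources used here. A read that fits several transcripts may be counted in each, so totals can exceed the reads. A table of human transcripts, with 28 columns of values that could not be assigned to samples, was not used. Groups and replicate numbers came from the sample titles.

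Of 142604 transcripts listed, 141374 matched GENCODE M21 by identifier. Each comparison was fitted over all transcripts passing filterByExpr with edgeR 4.0.16 (quasi-likelihood F-test, TMM scaling, Benjamini-Hochberg adjustment over all transcripts tested, threshold 0.05), in R 4.3.3, with genotype or tissue as the only factor and only the libraries compared. TE, disomes relative to RPFs and tissue by genotype were interaction terms. Each SE is the size of the log2 fold change divided by the root of its F value. Background percentages count 1 transcript per protein-coding gene. Counts at an unadjusted p, and most counts of calls under an alternative, have no such percentage beside them and are not read as exceeding that of all genes. A count of 3 or lower was taken as the floor. Coding windows were matched exactly to GRCm38 on both strands. The fit was tested on simulated data with 200 changed transcripts. The members, the gene lists and the tests were chosen with earlier results of these data known.

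Genes named with values were Psmb5 to Psmb10, Psme1, Psme2, Psma8, Psmb11 and Psmc3ip, the highest and lowest members of each part of the complex by WT level, and in each comparison the called members that rose most and those that fell most (at most 3 of each), or, with none called, the 3 largest changes among members whose groups did not overlap. Other members and genes of the pathway were named for their role or after their values were seen. A few genes of the pathway lists are counted but not reported singly here. Alternatives were DESeq2 1.42.0 with its size factors, library totals, a stricter and a looser filter on low counts (at least 10 in every library, or 1 in any), 1 transcript per gene, counts summed per gene, the replicate number as a block and each library left out in turn, and, chosen after seeing the data, the fit without KO kidney RNA-seq replicates 2 and 3. Leaving out each library in turn was not run for the tissue comparisons in KO and the tissue by genotype terms.

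The labels do not tie replicates to animals or across groups. Deviations of same-numbered libraries from their group means correlated above 0.1 in every pair for the RNA-seq libraries of the 2 tissues, in WT (0.161 to 0.456) and in KO (0.227 to 0.361). They did so too within WT for Ribo-seq with RNA-seq, in kidney (0.11 to 0.131) and brain (0.123 to 0.335), and for kidney Ribo-seq with disome-seq (0.118 to 0.186), but not in KO, nor between WT and KO. The numbers were thus taken to pair all samples of a comparison only for RNA between tissues, and within WT alone for the assays. Where replicates were not separate animals, p-values measure only the spread between these libraries. Depths are given beside the levels, SDs and SEs reflect the spread between libraries, and the floor covers counting error only.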

Additional observations from a re-analysis of the deposited data

How the results depend on the processing

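Of 199 counts of called genes recomputed under an alternative, 192 stayed within 1.5 times the reported count and 7 moved, and no named fold change that was called turned its sign. The 199 include each comparison of KO with WT, where 0 genes were called and an unchanged count is again 0. In KO kidney RPFs, where 0 genes were called, library totals gave 1 call (Psmd11). In KO kidney TE, with 0 calls, DESeq2 gave 2. For TE between WT tissues, with 6 calls, DESeq2 and counts summed per gene each gave 10, of which 3 were higher and 7 lower in kidney. The fit of 1 transcript per gene gave 6 higher and 1 lower in place of 3 and 3. The shares of all genes called in these fits are not given here, so no direction particular to the proteasome genes is read from them. With each library left out in turn, the calls ranged from 0 to 6 for KO kidney RNA, from 0 to 6 for KO kidney TE and from 4 to 11 for TE between WT tissues, the highest without WT kidney RNA-seq replicate 3. They ranged from 30 to 36 for RNA and from 26 to 32 for RPFs between WT tissues, and stayed at 0 for RPFs and disomes in KO kidney and for each KO comparison in brain. The cause was not tested. With the replicate block, 39 genes in place of 37 were called for RNA between WT tissues and 36 in place of 35 in KO, 35 in place of 32 for RPFs between KO tissues and 5 in place of 6 for TE, and the KO comparisons stayed at 0 in every tissue and assay. Depth limits disomes most, with 39 of 45 genes tested, and reads of Psma3, Psma5, Psmb3, Psmb5, Psme2 and Psme2b cannot be placed with certainty among their copies.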

Other observations

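The levels of the complex in KO libraries and in disomes belong to no comparison above. In KO kidney Ribo-seq the 14 core subunits had a median level of 67.7 ± 1.43 CPM per kilobase and the 17 base and lid subunits one of 31.9 ± 0.965 (SD, n = 3), and in KO brain these were 55.6 ± 3.35 and 26.7 ± 0.880. The highest core RPF level was 2.26 ± 0.301 times the lowest in KO kidney and 1.85 ± 0.0472 times in KO brain.

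In WT kidney disomes the core median was 61.3 ± 1.28 and that of base and lid 22.8 ± 2.36, and in KO 47.4 ± 9.92 and 18.8 ± 2.66. Psmb1 had the highest disome level of the beta ring in WT, at 81.7 ± 6.80, whereas Psmb5 had the highest RPF level. The highest of the alpha ring, Psma1 at 69.4 ± 4.29 and Psma6 at 69.1, differed by less than the SD, as did Psmd14 at 34.7 ± 2.06 and Psmd13 at 32.8 in the lid.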
